A study of Homo sapiens with 18 samples.

Results

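The response to interferon gamma (IFNγ) that was still measurable in cells carrying a guide RNA against ERH was read from 5 of the 18 libraries of the series. They were 2 libraries of IFNγ-treated cells (sgERH_IFNγ, replicates 1 and 3) and 3 libraries of non-treated cells (sgERH_NT, replicates 1 to 3). The members were fixed by guide and treatment, and sgERH_IFNγ replicate 2 was left out because the study had set it aside as an outlier. The study used QuantSeq, a 3′ mRNA sequencing method that counts reads next to the poly(A) tail, in RKO-iCas9 cells. The parental RKO line comes from a human carcinoma of the colon, and the derivative carries a Cas9 gene that doxycycline switches on.

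Both groups carried sgERH and both received 100 ng/mL doxycycline for 5 days. The sgERH_IFNγ cells were then given 25 ng/mL IFNγ for 4 h, and the sgERH_NT cells were given water over the same time. The control cells, read here only for comparison, carried sgAAVS1, a guide against a safe-harbour site, and were treated in the same way (sgAAVS1_IFNγ, 3 libraries, and sgAAVS1_NT, 2 libraries). The Cas9 derivative goes back to a single cell, whereas the guide-carrying cells were a sorted pool, so that edited and unedited cells could be mixed. In microscopy of RKO-iCas9 cells after 5 days of Cas9 induction, the study marked non-knockout cells in sgERH samples. Their share in the cells sequenced here is not known. In a mixed pool, fewer responding cells and less RNA per responding cell cannot be told apart. The titles call the replicates biological, and what was repeated for each is not stated, so the p-values measure the spread between these libraries.

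IFNγ binds the receptor chains IFNGR1 and IFNGR2, and the receptor-bound kinases JAK1 and JAK2 then start a signal to the nucleus. It acts through short palindromic promoter elements called gamma-activated sites and switches on a first set of genes, among them the transcription factor IRF1, which drives a further set. In epithelial and tumour cells this programme includes antigen presentation, guanylate-binding proteins, adhesion molecules and inhibitors of the pathway itself. ERH is a small protein found in complexes that process RNA. The study asked whether loss of ERH alters this signalling.

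The 5 libraries held 5059922 and 5242702 counts with IFNγ, against 5349185 to 5580416 without it, and 12486 to 12624 genes had at least 10 reads in each of the 5. ERH itself had 286 and 313 CPM (counts scaled to a common library total) in sgERH_IFNγ libraries, against 264 to 323 CPM in sgERH_NT libraries. Both groups lay below the sgAAVS1 cells, which had 562 to 606 CPM of ERH with IFNγ and 629 and 643 CPM without it. Where the guide cuts relative to the counted 3′ reads was not analysed here, so these reads give the level of the transcript and not the extent of editing. The RKO identity could be checked only in part. Of the 8 markers listed for this line, KRT8, KRT18, EPCAM, CDX2 and VIM were read, while KRT19, CDH1 and VIL1 had 0 reads in all 5 libraries. The 8 together had only 114 to 123 CPM in sgERH_IFNγ libraries and 124 to 127 CPM in sgERH_NT libraries. Of the leukocyte markers 9 of 11 and of the fibroblast or endothelial markers 7 of 11 had 0 reads, and no fibroblast or endothelial marker reached 1 CPM. CD68, a lysosomal protein used as a macrophage marker, was the 1 leukocyte marker above 1 CPM, with 387 and 439 CPM in sgERH_IFNγ libraries, against 457 to 486 CPM in sgERH_NT libraries, and it had 410 to 468 CPM in the sgAAVS1 libraries compared. The left-out sgERH_IFNγ replicate 2 had 4293010 counts, and a share of 24.0% multimapping reads against 21.1% to 21.8% in the 5 libraries.

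With IFNγ, 4 of 13370 genes tested rose in sgERH cells (0.0299%), and 0 fell (0.0%), at an adjusted p of at most 0.05 in edgeR's quasi-likelihood test. IRF1, GBP3 and ICAM1, known genes of the IFNγ programme, are described here. With a fold of at least 2 added, the calls were IRF1 and GBP3 (0.015% higher, 0.0% lower). At an unadjusted p under 0.05, 500 genes were higher (3.74%) and 388 were lower (2.9%), in all 6.64% of the genes tested.

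IRF1, an early transcription factor of the IFNγ response, had 118 and 118 CPM in sgERH_IFNγ libraries, against 30.4, 25.6 and 27.9 CPM in sgERH_NT libraries. The groups lay far apart and the 2 treated libraries were nearly equal. IRF1 rose 4.20-fold, with a log2 fold change of 2.07 ± 0.12 (SE, edgeR adjusted p = 2.49e-12). It was the leading gene of the comparison by p-value.

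GBP3, a guanylate-binding GTPase of cell-autonomous immunity, had 48.3 and 42.1 CPM in sgERH_IFNγ libraries, against 21.2, 21.3 and 19.4 CPM in sgERH_NT libraries. The 3 sgERH_NT values were close to each other and the groups did not overlap. GBP3 rose 2.19-fold (log2 fold change 1.13 ± 0.15 SE, edgeR adjusted p = 1.77e-04), and 11.7% of its reads were multimapping.

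ICAM1, the adhesion molecule that leukocyte integrins bind, had 81.4 and 90.8 CPM in sgERH_IFNγ libraries, against 45.2, 52.1 and 46.3 CPM in sgERH_NT libraries. Both treated libraries exceeded all 3 non-treated ones. ICAM1 rose 1.80-fold (log2 fold change 0.85 ± 0.13 SE, edgeR adjusted p = 0.00213). Without sgERH_IFNγ replicate 3 its log2 fold change was 0.77 and its adjusted p 0.235.

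**Figure D1:**
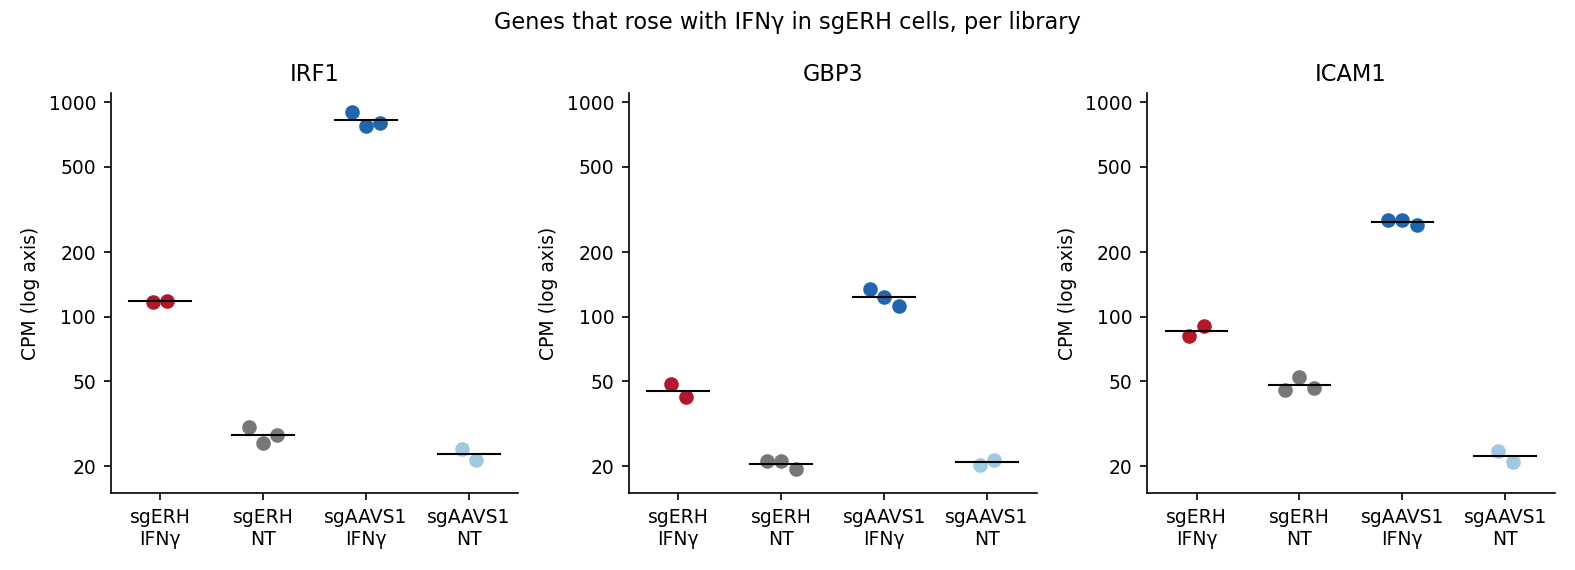
Each panel plots 1 gene. Points are single libraries in CPM on a log axis, black lines are group means, and the groups are sgERH_IFNγ, sgERH_NT, sgAAVS1_IFNγ and sgAAVS1_NT from left to right. In every panel the 2 sgERH_IFNγ libraries lie above the 3 sgERH_NT libraries and far below the 3 sgAAVS1_IFNγ libraries, for IRF1 at 118 CPM against 773 to 897 CPM.

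The promoters of the 3 genes are shown because gamma-activated sites have the palindromic pattern TTCNNNGAA. Each of the 3 had 1 match in the 250 bases before its RefSeq start (GRCh38.p14), and the match is in capitals with the bases around it, written 5′ to 3′ on the gene's strand. IRF1 lies on the − strand (chr5:132490853-132490933), GBP3 on the − strand (chr1:89022867-89022917) and ICAM1 on the + strand (chr19:10271009-10271089). The matches begin at positions -124, -15 and -75 relative to the start of IRF1, GBP3 and ICAM1.
IRF1: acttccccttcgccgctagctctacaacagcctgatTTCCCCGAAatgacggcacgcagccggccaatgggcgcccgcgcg
GBP3: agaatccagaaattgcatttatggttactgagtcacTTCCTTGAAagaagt
ICAM1: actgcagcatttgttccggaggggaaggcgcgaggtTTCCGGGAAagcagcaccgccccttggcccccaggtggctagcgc
The pattern reads alike on both strands. It was found in 680 of 9138 tested genes that matched the RefSeq promoter table by symbol (7.44%), so a match alone is a description of these letters and not evidence of binding.

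The counts of calls differed between alternative analyses. They were 9 higher and 3 lower by DESeq2's Wald test, 38 and 24 when only the sgERH_IFNγ and sgERH_NT libraries entered the fit, and 22 and 7 without sgERH_IL-1β replicate 2, a library of a group outside this comparison. With sgERH_IFNγ replicate 2 put back, IRF1 and GBP3 passed and ICAM1 did not (log2 fold change 1.14).

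**Figure D2:**
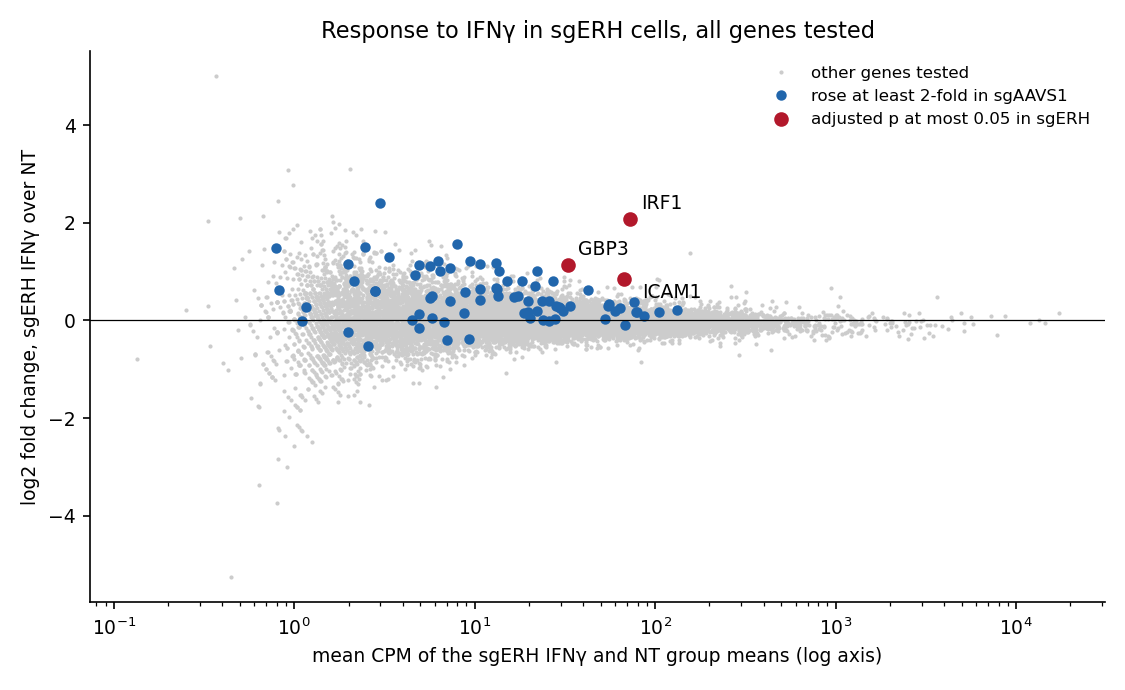
Points are genes tested, placed by the mean CPM of the sgERH groups on a log axis and by the log2 fold change of sgERH_IFNγ over sgERH_NT. Red points are IRF1, GBP3 and ICAM1, which rose, and blue points the other genes that rose at least 2-fold in sgAAVS1 cells. Most blue points lie above 0 but within the cloud of grey points of like level.

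To describe how much of the usual response was left, genes were taken from the control cells. In sgAAVS1 cells 80 genes (0.598% of those tested) rose at least 2-fold with IFNγ at an adjusted p of at most 0.05. The sgAAVS1 libraries chose these genes and the sgERH libraries did not, although both shared 1 estimate of dispersion. WARS and WARS1, an older and a current symbol of the same gene, are both among the 80. AC010619.1 and FLT3LG, also among the 80, had close CPM in each library. In sgERH_IFNγ they had 18.1 and 20.5 CPM against 19.2 and 21.4 CPM, and whether they share reads was not tested.

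All 4 genes that rose in sgERH cells were among the 80. The log2 fold change in sgERH was above 0 in 71 of the 80, against 51.2% of all genes tested, and its median was 0.41, against 0.01 over all genes. Both sgERH_IFNγ libraries lay above all 3 sgERH_NT libraries for 44 of the 80, where 15.5% of all genes did so. They lay below all 3 for 1 of the 80, IL18BP, where 13.0% of all genes did so. At an unadjusted p under 0.05, 33 of the 80 were higher and 0 were lower, against 3.74% and 2.9% of all genes.

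The log2 fold change in sgERH was smaller than that in sgAAVS1 for each of the 80 genes, a direction to which their choice on the sgAAVS1 libraries contributes. In the 75 genes with reads in every group, the log2 fold change in sgERH was a median 23.4% of that in sgAAVS1 (quartiles 12.1% and 37.3%). Across these 75 genes the log2 fold changes of sgERH and sgAAVS1 had a Pearson r of 0.684 and a Spearman rho of 0.630, given as a description since genes of the same libraries are not independent. The 34 genes that rose at least 4-fold in sgAAVS1 had a median log2 fold change of 0.89 in sgERH, and 25 of them lay above all sgERH_NT libraries. The 46 genes under 4-fold had a median of 0.20, and 19 of them did so. Of all genes tested, 15.5% lay above all sgERH_NT libraries.

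The 6 pairings of an sgERH_IFNγ with an sgERH_NT library gave medians of the log2 ratio over the 80 genes between 0.32 and 0.58, against 0.01 to 0.02 over all genes. No pairing had a median near that of all genes. The 70 genes with at most 20% multimapping reads had a median of 0.47, and the 38 genes that stood in none of the pathway lists had a median of 0.28. For single genes the precision was limited, and the 95% interval of the sgERH log2 fold change included a doubling for 38 of the 80.

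The response was also read as the gain in CPM. The mean gain in sgERH was 11.2% of the mean gain in sgAAVS1 for IRF1, 14.99% for ICAM1 and 24.0% for GBP3. Over the 42 of the 80 genes with at least 20 CPM in sgAAVS1_IFNγ, a minimum set after the values were seen, the median was 16.5% (quartiles 9.88% and 26.9%), and the gain was above 0 in 40. ERAP2, an aminopeptidase that trims peptides for class I presentation, stood highest of the 42 at 72.8%. It had 29.2 and 29.8 CPM in sgERH_IFNγ, against 12.7, 13.3 and 17.5 CPM in sgERH_NT, which was the level of the 3 sgAAVS1_IFNγ libraries (29.5 to 30.05 CPM). Over all 80 genes, those of lower level included, the share ran from -32.1% for AC025171.2 to 103.9% for C5orf56. C5orf56 had means of 8.80 CPM in sgERH_IFNγ and 3.79 CPM in sgERH_NT, against 5.62 CPM in sgAAVS1_IFNγ and 0.80 CPM in sgAAVS1_NT.

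Among the interferon-response transcription factors 11 of 12 were tested, with a median log2 fold change of 0.39. IRF1 rose, and 4 of the 11 lay above all sgERH_NT libraries, where 15.5% of all genes did so. NLRC5, the transactivator of class I genes, had 14.4 and 22.0 CPM in sgERH_IFNγ libraries, against 6.79, 9.91 and 10.4 CPM in sgERH_NT libraries. The groups did not overlap, but the log2 fold change of 1.01 ± 0.23 (SE) did not pass (edgeR adjusted p = 0.182). IRF9, the DNA-binding subunit of the ISGF3 complex, had 17.8 and 12.0 CPM in sgERH_IFNγ, against 7.83, 4.51 and 7.65 CPM in sgERH_NT (1.15 ± 0.28, adjusted p = 0.268). IRF2, an antagonist of IRF1, had 28.3 and 25.6 CPM in sgERH_IFNγ, against 19.8, 13.9 and 15.5 CPM in sgERH_NT (0.72 ± 0.18, adjusted p = 0.289). These 3 genes therefore stood apart by library without reaching the threshold. In the sgERH libraries treated with IL-1β, IRF2 was as high as with IFNγ, at 28.1, 31.4 and 24.7 CPM. NLRC5 had 6.90, 7.05 and 7.72 CPM there, and IRF9 had 5.31, 4.00 and 6.14 CPM.

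BATF2, a basic leucine zipper factor of the IFNγ programme, showed no gain by its values. It had 1.30 and 0.91 CPM in sgERH_IFNγ libraries, against 1.22, 1.08 and 1.02 CPM in sgERH_NT libraries, from 12 and 19 reads in all. Its log2 fold change was -0.01, with a 95% interval of -1.23 to 1.22, so that a doubling was not detectable at this depth. In sgAAVS1 cells the same gene had a mean of 7.996 CPM with IFNγ and 0 reads without it, at least 27.4-fold higher when 3 reads over the whole group are set as the floor.

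The list of receptor and kinase components had 8 genes tested, with a median log2 fold change of 0.19, and none fell. JAK2, the kinase of the IFNGR2 chain, had 44.0 and 44.5 CPM in sgERH_IFNγ libraries, against 37.9, 27.8 and 36.6 CPM in sgERH_NT libraries. Both treated libraries were above all non-treated ones, yet the log2 fold change of 0.38 ± 0.17 (SE) did not pass (edgeR adjusted p = 0.709). The same gene had 43.3, 56.4 and 56.1 CPM in the sgERH libraries treated with IL-1β, so its place above sgERH_NT was not particular to IFNγ. In sgAAVS1_NT it had 44.1 and 54.9 CPM. JAK1, the kinase of the IFNGR1 chain, had 87.3 and 89.9 CPM with IFNγ, against 89.4, 87.2 and 93.2 CPM without it (-0.02 ± 0.12).

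The negative feedback genes, of which 9 of 10 were tested, had a median log2 fold change of 0.08, and 0 passed. SOCS3, an inhibitor of cytokine receptor signalling, had 22.6 and 24.2 CPM in sgERH_IFNγ, against 11.8, 10.3 and 17.9 CPM in sgERH_NT (0.81 ± 0.44 SE, edgeR adjusted p = 0.785). SOCS1, which inhibits the JAK kinases, had 3.88 and 2.91 CPM, against 2.44, 2.70 and 1.53 CPM (0.61 ± 0.53, adjusted p = 0.871). Both stood above all sgERH_NT libraries, with 95% intervals of -0.16 to 1.77 for SOCS3 and -0.49 to 1.70 for SOCS1.

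**Figure D3:**
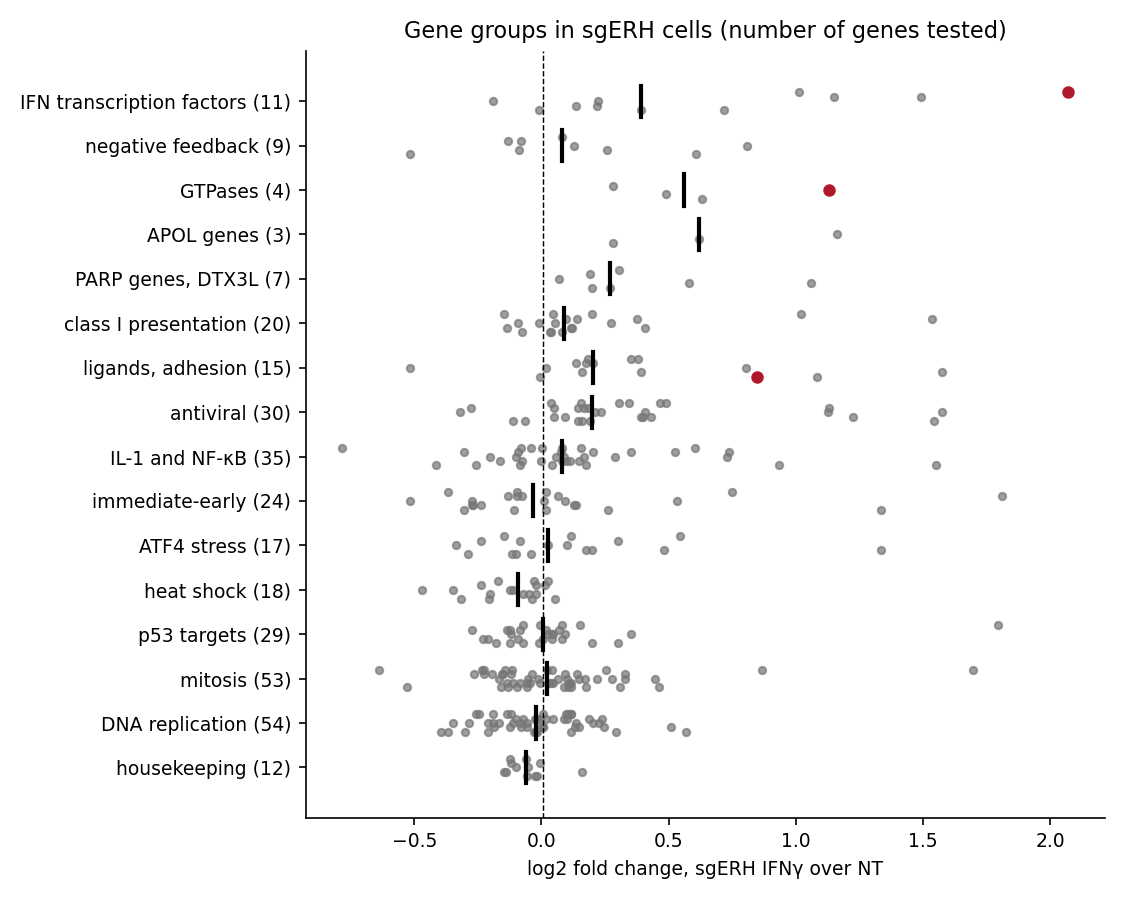
Each point is a gene of the list named at the left, with the number of genes tested in brackets, placed at its log2 fold change of sgERH_IFNγ over sgERH_NT. Black bars are list medians, the dashed line is the median of all genes at 0.01, and red points are IRF1, GBP3 and ICAM1, which rose. The medians of the interferon lists lie to the right of the line, from 0.08 to 0.62. Those of the IL-1 and NF-κB (0.08), ATF4 stress (0.03) and mitosis (0.02) lists also lie to its right. To its left lie the medians of the heat shock (-0.09), housekeeping (-0.06), immediate-early (-0.03) and DNA replication (-0.02) lists.

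Of the guanylate-binding and related GTPases 4 of 11 had enough reads to be tested, with a median log2 fold change of 0.56, and GBP3 alone of them rose. MX1, a dynamin-like antiviral GTPase, had a log2 fold change of 0.28, also above all sgERH_NT libraries. GBP1 and GBP2 overlapped between groups at low counts, with 11 reads over the sgERH_IFNγ libraries against 11 over the sgERH_NT libraries for GBP1, and 9 against 10 for GBP2.

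The apolipoprotein L genes, which include the trypanosome-killing protein APOL1, had 3 of 6 members tested and a median log2 fold change of 0.62. APOL2 had 50.7 and 51.8 CPM in sgERH_IFNγ libraries, against 37.8, 35.1 and 27.2 CPM in sgERH_NT libraries. The groups were separate, and the log2 fold change of 0.62 ± 0.15 (SE) did not pass (edgeR adjusted p = 0.268). APOL6 had 3.14 and 2.36 CPM with IFNγ, against 0.35, 0.90 and 2.38 CPM without it, which overlap. In sgAAVS1 cells APOL6 averaged 8.84 CPM with IFNγ against 0 reads, at least 30.3-fold higher by the same floor.

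The interferon-linked PARP genes and DTX3L were all tested (7 genes), with a median log2 fold change of 0.27. All 7 had a log2 fold change above 0, against 51.2% of all genes. None passed. PARP9, which works in a complex with the ubiquitin ligase DTX3L, had 9.25 and 12.0 CPM in sgERH_IFNγ libraries, against 8.003, 7.39 and 5.95 CPM in sgERH_NT libraries (0.58 ± 0.33 SE, edgeR adjusted p = 0.786). DTX3L had 32.4 and 31.8 CPM, against 23.1, 30.3 and 26.5 CPM (0.27 ± 0.16, adjusted p = 0.795). Both genes were above all sgERH_NT libraries by small margins.

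In class I antigen presentation 20 of 21 genes were tested, with a median log2 fold change of 0.09, and none passed. At an unadjusted p under 0.05, 4 were higher and 0 lower, against 3.74% and 2.9% of all genes. These 4 were ERAP1 and ERAP2, the trimming peptidases, TAP1, a subunit of the peptide transporter, and HLA-E, a nonclassical class I chain. ERAP1 had 11.8 and 7.45 CPM in sgERH_IFNγ libraries, against 2.44, 2.70 and 4.76 CPM in sgERH_NT libraries, a log2 fold change of 1.53 ± 0.33 (SE, edgeR adjusted p = 0.0853). ERAP2 had a log2 fold change of 1.02 ± 0.20 (adjusted p = 0.0633). TAP1 (0.41) and HLA-E (0.38) are uncertain because 100% and 94.5% of their reads were multimapping.

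The heavy chain genes HLA-B and HLA-C had log2 fold changes of 0.12 and 0.05, with 100% multimapping reads. B2M, the light chain of class I molecules, had 720 and 773 CPM in sgERH_IFNγ libraries, against 738, 707 and 674 CPM in sgERH_NT libraries, and 99.9% of its reads were multimapping. Its log2 fold change of 0.08 had a 95% interval of -0.13 to 0.29. PSMB8-AS1, a transcript antisense to the immunoproteasome gene PSMB8, had 4.62 and 5.45 CPM with IFNγ, against 0.17, 1.62 and 1.02 CPM without it (2.40 ± 0.50 SE, edgeR adjusted p = 0.0706), but all of its reads were multimapping. In class II presentation 1 of 11 genes was tested, IFI30, a lysosomal thiol reductase, at 0.02.

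Among immune ligands, adhesion molecules and secreted factors 15 of 31 were tested. Their median log2 fold change was 0.20, and 8 lay above all sgERH_NT libraries, against 15.5% of all genes. ICAM1 rose. PDCD1LG2, which encodes PD-L2, had 7.40 and 12.4 CPM in sgERH_IFNγ, against 4.87, 3.60 and 5.44 CPM in sgERH_NT (1.08 ± 0.32 SE, edgeR adjusted p = 0.472). SECTM1, a CD7 ligand, had 19.98 and 18.7 CPM, against 7.31, 11.9 and 13.9 CPM (0.81 ± 0.21, adjusted p = 0.311). CD274, which encodes PD-L1, had a log2 fold change of 0.02 with a 95% interval of -0.18 to 0.21, and its libraries overlapped.

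The type I antiviral list had 30 of 42 genes tested and a median log2 fold change of 0.20, and 15 of the 30 lay above all sgERH_NT libraries (15.5% of all genes). None passed the test, and at an unadjusted p under 0.05, 8 were higher (3.74% of all genes) and 1 was lower (2.9% of all genes). IFIT3, an interferon-induced antiviral protein, had 11.3 and 12.7 CPM in sgERH_IFNγ libraries, against 3.83, 4.15 and 4.08 CPM in sgERH_NT libraries. Each group was tight and the groups did not overlap, with a log2 fold change of 1.57 ± 0.31 (SE, edgeR adjusted p = 0.0633). TRIM21, an antibody receptor of the cytosol, had 12.6 and 13.8 CPM, against 5.39, 3.60 and 7.82 CPM (1.23 ± 0.31, adjusted p = 0.282). The gene that was lower was IFI27, at -0.28, and all of its reads were multimapping.

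The genes that ranked next after the 4 were named after their values were seen. IFIT3, ERAP2 and TRIM69, a tripartite-motif protein, shared an adjusted p of 0.0633, followed by PSMB8-AS1 and HSDL1 at 0.0706. Of these 5 genes HSDL1 alone was lower with IFNγ. It had 8.32 and 10.9 CPM in sgERH_IFNγ, against 19.3, 21.8 and 19.7 CPM in sgERH_NT (log2 fold change -1.07). TRIM69 had 20.2 and 16.2 CPM in sgERH_IFNγ, against 8.18, 10.1 and 5.78 CPM in sgERH_NT, with 99.9% multimapping reads. Of the 30 genes with the smallest p-values 14 belonged to the 80 that rose in sgAAVS1 cells, to which 0.598% of all genes tested belonged.

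Lists outside the interferon programme had medians close to the median of all genes. The IL-1 and NF-κB list (35 of 44 tested) had a median log2 fold change of 0.08, immediate-early genes (24 of 29) -0.03, the ATF4 stress response (17 of 20) 0.03 and p53 targets (29 of 29) 0.01. Mitosis (53 of 54) had a median of 0.02, DNA replication (54 of 54) -0.02 and housekeeping genes (12 of 12) -0.06. Of the 12 housekeeping genes 11 lay below 0, where 51.2% of all genes lay above it. None of the members of these lists passed. Above all sgERH_NT libraries lay 9 of the 35 IL-1 and NF-κB genes and 6 of the 17 ATF4 genes, against 15.5% of all genes. Below all of them lay 4 of the 35 and 3 of the 17, against 13.0% of all genes. ZFP36, an immediate-early RNA-binding protein that promotes mRNA decay, had 4.81 and 5.09 CPM in sgERH_IFNγ, against 1.04, 1.08 and 2.04 CPM in sgERH_NT (1.81 ± 0.45 SE, edgeR adjusted p = 0.268).

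Of the 18 tested genes of the heat shock list (19 in the list) 15 had a log2 fold change below 0, where 51.2% of all genes were above 0. Of the 18, 7 lay below all sgERH_NT libraries, where 13.0% of all genes did so, and the median was -0.09. DNAJB1, a cochaperone of HSP70, had 226 and 242 CPM in sgERH_IFNγ libraries, against 320, 322 and 330 CPM in sgERH_NT libraries. The groups did not overlap, and the log2 fold change of -0.47 ± 0.11 (SE) did not pass (edgeR adjusted p = 0.235). DESeq2 called it lower, with HSDL1 and RPL34P31. In sgAAVS1 cells the median of the same list was -0.08.

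Against IL-1β, an unrelated cytokine that signals to NF-κB and was given at 10 ng/mL to cells with the same guide, 9 genes were higher with IFNγ (0.0673%) and 24 were lower (0.18%). Of the 9 higher genes 8 were among the 80 that rose in sgAAVS1 cells, against 0.598% of all genes tested. They included APOL6, IRF9, NLRC5, TRIM69, ANXA2R, IRF1 and SECTM1, and the ninth was NFU1, an iron-sulfur cluster scaffold protein. NFU1 had 42.4 and 50.3 CPM with IFNγ, against 31.1, 23.8 and 32.5 CPM with IL-1β and 45.1, 40.9 and 47.4 CPM in sgERH_NT. APOL6 had 3 reads in all over the sgERH_IL-1β libraries. Among the 24 lower genes, ICAM1, LINC02605 and AC083837.1 also belonged to the 80. This comparison uses the same sgERH_IFNγ libraries and is not independent of the one with sgERH_NT.

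IRF1 had 118 and 118 CPM with IFNγ, against 52.9, 52.0 and 50.9 CPM with IL-1β, a log2 difference of 1.18. ICAM1, which both cytokines are known to raise, was lower with IFNγ than with IL-1β, at -1.15 (edgeR adjusted p = 4.08e-06). GBP3 was not separated from IL-1β by the test (0.57, adjusted p = 0.189).

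The difference between guides in the response was tested as an interaction term. It was at least 2-fold and lower in sgERH for 25 genes (0.187%) and higher for 2 (0.015%), and all 25 belonged to the 80, whose choice used the sgAAVS1 side of this contrast. The difference was -3.11 ± 0.18 (SE) for IRF1, -2.79 ± 0.20 for ICAM1 and -1.43 ± 0.22 for GBP3 (edgeR adjusted p at most 6.11e-04 in each). ERAP1 had a positive difference of 0.65 that did not pass (adjusted p = 0.910). Starting levels differed too, with ICAM1 at a mean of 47.9 CPM in sgERH_NT against 22.4 CPM in sgAAVS1_NT and APOL2 at 33.4 CPM against 9.45 CPM. The part of these starting levels in the smaller response was not tested.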

How the data were processed

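The submitters' processing notes name Trim Galore 0.6.2 and FastQC 0.11.8. Trimmed reads were mapped by the authors with SlamDunk to GRCh38 and counted in 3′ end windows built with 3-GAmES. The deposited values are raw read counts per gene symbol, not normalized, with multimapping reads included. Counts as deposited were tested with edgeR 4.0.16 (R 4.3.3, limma 3.58.1) with filterByExpr, TMM factors and a robust quasi-likelihood F test, in 1 model of 6 groups over 15 libraries and 13370 genes (common biological coefficient of variation 12.6%). The 15 libraries, which held 4987127 to 5986338 counts, were those the study kept. p-values were adjusted by Benjamini-Hochberg over all genes tested, and "rose" or "fell" means an adjusted p of at most 0.05. CPM were scaled by the TMM factors. Library ratios used a pseudocount of 0.5 CPM. Molecular identifiers are not mentioned, so a floor covers counting error alone. Strand use in counting is not given in the sources used here.

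Members and gene lists were chosen with earlier results of these data known. Named genes were 20 pathway genes, up to 15 highest and lowest fold changes among genes that passed with libraries that do not overlap, and the 10 largest fold changes in sgAAVS1. Alternatives were DESeq2 1.42.0 (test or size factors), no filter, other sets of libraries, no multimapping reads, a replicate block and leaving out single libraries, and leaving out sgERH_IL-1β replicate 2 was added after seeing the data. Results on 1 gene that passed and on 1 class I gene are not reported here. The edgeR fit was tested on simulated data, in which only genes of higher counts were changed and every gene had the same dispersion. That test does not cover genes of few reads. Promoters came from RefSeq (GRCh38.p14).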

Additional observations from a re-analysis of the deposited data

Results flagged for a closer look

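For 13 of the named genes the response to IFNγ differed between guides by the test of the difference itself. In each case the log2 fold change was smaller in sgERH than in sgAAVS1 cells. Named genes included the largest fold changes in sgAAVS1, the sgAAVS1 side of this contrast, which favours a smaller sgERH response for them. Of the 13, IRF1, ICAM1, NLRC5, BATF2, APOL6 and AC083837.1 met that rule, and all but AC083837.1 were also pathway genes. Over all genes tested, the difference passed and was at least 2-fold for 0.187% lower in sgERH and 0.015% higher. The log2 difference, sgERH minus sgAAVS1, was -3.11 for IRF1, -2.79 for ICAM1, -2.66 for NLRC5, -2.54 for APOL2, -2.64 for PARP9 and -2.10 for its partner DTX3L. It was -2.01 for IRF9, -1.63 for TAP1, -1.43 for GBP3 and -1.23 for HLA-E, and -8.43 for BATF2, -7.40 for APOL6 and -6.56 for AC083837.1, whose fitted values depend on the prior count because sgAAVS1_NT had 0 reads of them. For AC083837.1 the levels with IFNγ were alike, with means of 1.83 CPM in sgERH_IFNγ and 1.88 CPM in sgAAVS1_IFNγ. Its levels without IFNγ differed, at 2.14 CPM in sgERH_NT against 0 reads in sgAAVS1_NT. TAP1 and HLA-E consist almost wholly of multimapping reads.

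The library sgERH_IFNγ replicate 2, which the comparison does not use, held 105 CPM of IRF1 in its total counts. On the same scale of total counts, without TMM factors, the sgERH_IFNγ libraries used held 126 and 124 CPM and the sgERH_NT libraries 26.5 to 31.5 CPM. Other genes of the left-out library stood further from the libraries used. On that scale it held 126 CPM of ERH against 306 and 329 CPM, 69.6 CPM of GBP3 against 51.6 and 44.3 CPM, and 73.6 CPM of JAK2 against 47.04 and 46.7 CPM. It had 0 reads of SOCS3.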

How the results depend on the processing

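IRF1 rose in the main analysis and all 19 alternatives, with a log2 fold change of 2.01 to 2.14. GBP3 (1.03 to 1.38) passed in all but 1, the fit of all 18 libraries, and ICAM1 (0.77 to 1.14) in all but 3, which were that fit, the fit with sgERH_IFNγ replicate 2 put back and the fit without sgERH_IFNγ replicate 3. Against 4 genes higher, 0 lower and 2 past the fold threshold, the numbers were 9, 3 and 8 by DESeq2's Wald test, 30, 6 and 16 without the filter, 38, 24 and 16 with only the groups compared, 7, 0 and 5 without multimapping reads and 1, 0 and 1 with all 18 libraries. Of the 38 genes 12 and of the 30 genes 13 were among the 80 that rose in sgAAVS1, and 0 of the lower ones were. The 80 made up 0.598% of the genes tested in the main analysis. Leaving out single libraries gave 3 to 22 genes higher, 0 to 7 lower and 2 to 11 past the fold threshold. The extremes came without sgERH_IL-1β replicate 2 (22, 7 and 11, of which 13 of the 22 were among the 80), an alternative chosen after seeing the data. The others that moved a count by more than 1.5 times were sgAAVS1_NT replicates 2 and 3 (7 higher and 5 past the fold threshold each) and sgERH_NT replicates 2 and 3 (4 and 5 past the fold threshold, with 6 higher each). The lowest count, 3 higher, came without sgERH_IFNγ replicate 3. The cause was not tested.

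The guide difference passed the fold threshold in 27 genes, in 7 with sgERH_IFNγ replicate 2 put back, in 3 with all 18 libraries and in 16 to 39 with single libraries left out, the lowest when sgERH_IFNγ replicate 1 (16), sgERH_IFNγ replicate 3 (17) or sgAAVS1_NT replicate 2 (17) was missing. The median log2 fold change in sgERH of the genes that rose in sgAAVS1 was 0.41, and 0.36 to 0.52 with single libraries left out. It was 0.72 over 38 genes with replicate 2 put back and 0.85 over 22 genes with all 18 libraries, where fewer genes rose in sgAAVS1. Of 429 values of single named genes, 412 kept their side of the threshold, 12 passed only in the alternative and 5 only in the main analysis, and 0 called values changed sign, although 27 values that passed in neither did.

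With the replicate number as a block the calls were 4 higher, 0 lower and 2 past the fold threshold, the guide difference passed in 23 genes and the median was 0.39. The numbers are not known to pair the samples, since only 2 are shared by the groups compared and the replicate 1 minus replicate 3 differences of the groups had a correlation of 0.01. Depth limits genes of low level, as for BATF2, whose 12 reads in sgERH_IFNγ and 19 in sgERH_NT left a 95% interval of -1.23 to 1.22.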
